A study of Mus musculus with 18 samples.

Results

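Adipocyte transcripts in the mouse colon were followed through 8 genes: Adipoq, Lep, Retn, Cfd, Plin1, Cidec, Fabp4 and Pck1. They were taken by symbol from the 36757 genes of the count table, as a measure of the fat attached to a tissue sample, and all 8 were found. The genes were chosen by known fat expression together with measured values of these libraries, among them the absence of Adipoq reads from the colitis-associated cancer (CAC) samples labelled RNF138-/-. The CAC libraries therefore entered the choice, and the comparisons of the members that use them are given below as a description, with no p.

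White adipocytes store triglyceride in a single large lipid droplet and release hormones into the blood. Adiponectin (Adipoq), leptin (Lep), resistin (Retn) and adipsin, the complement protease factor D (Cfd), are secreted by mouse fat cells. Perilipin 1 (Plin1) and Cidec coat the lipid droplet, where Plin1 controls access of lipases and Cidec drives droplet fusion. Fabp4 carries fatty acids in the cytosol and is also made by capillary endothelium and macrophages. Pck1, the cytosolic phosphoenolpyruvate carboxykinase, serves gluconeogenesis in liver, kidney and gut and glyceroneogenesis in fat. In the abdomen, white fat lies in the mesentery on the outer side of the gut wall.

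RNA was sequenced from colorectal samples of C57BL/6 mice labelled wild type (RNF138fl/fl in the treatment protocol) or RNF138-/-, with 3 libraries in each of 6 groups. Mice of the colitis model, 6 to 8 weeks old at the start, drank 2% dextran sulfate sodium (DSS) for 7 days and then water for 14 days, in repeated cycles. Mice of the CAC model, of the same age, were first injected with azoxymethane (AOM, 10 mg/kg), a colon carcinogen, and then went through DSS cycles of the same kind. Organoids, 3-dimensional cultures of tumor cells in matrigel, were grown from tumors of CAC mice of each genotype, so all 18 libraries come from DSS-treated animals or their tumors. The labels name neither the animals behind the libraries nor how the colon was dissected, and p-values measure the spread between these samples, which may in part be technical. In bulk tissue, fewer cells of a type and less RNA per cell cannot be told apart.

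Total counts per library were between 11514716 and 24390082 reads assigned to genes. The targeted gene, Rnf138, had a mean of 18.8 CPM, the reads of a gene scaled to a common library size, in the libraries labelled RNF138-/- against 19.9 CPM in wild type in colitis, 43.4 against 25.6 CPM in CAC and 46.7 against 48.4 CPM in organoids. The genotypes overlapped in colitis and organoids, and in CAC the libraries labelled RNF138-/- were the higher ones. A count over a whole gene does not show whether an exon is missing, so the samples are called here by their labels. Reads of Xist, made from the inactive X chromosome, were between 4924 and 6881 in the organoids labelled wild type and between 0 and 3 in those labelled RNF138-/-, so sex and genotype cannot be told apart in organoids. The 12 colon tissue libraries had between 0 and 11 Xist reads and between 455 and 1498 reads of the Y-linked Ddx3y.

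Adipoq and Lep are shown by their promoters because their reads were high together in 1 colitis library and apart in the CAC libraries. The 250 bases before each start site, from RefSeq on the GRCm38.p6 build (mm10), are printed 5′ to 3′ on the strand of the gene, and 7 of the 8 genes had an entry. Capitals mark the motifs searched in this window, which were TATAAA on the sense strand and TTGCNNAA (a binding site of C/EBP factors, which drive adipocyte genes), CCAAT and the response element of PPAR gamma on both strands. The Adipoq window lies at chr16:23146286-23146535 and the Lep window at chr6:29059971-29060220, both on the plus strand.
Adipoq: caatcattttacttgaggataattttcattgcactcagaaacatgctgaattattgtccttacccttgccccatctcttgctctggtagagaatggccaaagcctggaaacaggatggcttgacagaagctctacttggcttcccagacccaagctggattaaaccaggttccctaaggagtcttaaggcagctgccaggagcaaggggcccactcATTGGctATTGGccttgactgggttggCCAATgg
Lep: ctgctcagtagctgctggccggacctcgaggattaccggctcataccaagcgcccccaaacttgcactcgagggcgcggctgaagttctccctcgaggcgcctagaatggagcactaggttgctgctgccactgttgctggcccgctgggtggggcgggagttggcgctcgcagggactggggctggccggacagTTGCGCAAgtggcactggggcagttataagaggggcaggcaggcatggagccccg

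The Lep window held 1 match to TTGCNNAA, between 55 and 48 bases before the start, a motif found in 9.56% of 32851 RefSeq promoter windows of that length. Adipoq held 3 matches to CCAAT, the nearest between 7 and 3 bases before the start, a motif of 33.8% of the windows. Plin1 held 2 matches to TTGCNNAA and Cidec 1, at the second of its 2 listed starts. Neither TATAAA (7.59% of the windows) nor the PPAR response element (0.0335%) was found in the 7 genes, which says only that these letters are not in these windows.

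Among the secreted products, adiponectin reads were frequent in a few libraries and nearly missing from the rest. Adipoq (ENSMUSG00000022878.5, chr16:23146536-23158028) had 10, 1 and 7 reads in the colitis wild type libraries 1 to 3, and 1, 10 and 241 in colitis RNF138-/-. In CAC it had 175, 125 and 18 reads in wild type and 0, 0 and 0 in RNF138-/-. High values were therefore found in colitis RNF138-/- library 3 and in CAC wild type libraries 1 and 2, and CAC wild type library 3 was lower than those. The 6 organoid libraries had 1 read in total. The group means were 6.20 ± 4.64 CPM (SD, n = 3) in CAC wild type, 4.27 ± 6.83 CPM (SD, n = 3) in colitis RNF138-/- and 0.355 ± 0.267 CPM (SD, n = 3) in colitis wild type. The highest of these groups overlapped with the second, and the second with the third.

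Leptin, the hormone that signals fat stores to the brain, followed another course. Lep (ENSMUSG00000059201.12, chr6:29060220-29073877) had 4, 0 and 6 reads in colitis wild type and 0, 2 and 68 in colitis RNF138-/-. In CAC wild type it had 3, 0 and 0 reads, and it had 0 in every CAC RNF138-/- and every organoid library. Colitis RNF138-/- library 3 alone stood above 6 reads. The CAC wild type libraries, high in Adipoq, were at or below the level that a count of 0 allows (3 reads).

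Resistin, a small cysteine-rich hormone of mouse fat, and adipsin, which activates the alternative complement pathway, were high in the same 3 libraries as adiponectin. Retn (ENSMUSG00000012705.16, chr8:3655770-3660110) had 6, 2 and 4 reads in colitis wild type, 1, 5 and 75 in colitis RNF138-/-, 85, 32 and 5 in CAC wild type and 0, 2 and 1 in CAC RNF138-/-. Cfd (ENSMUSG00000061780.6, chr10:79890853-79892655) had 4, 0 and 9 reads in colitis wild type, 5, 48 and 370 in colitis RNF138-/-, 710, 740 and 77 in CAC wild type and 2, 0 and 0 in CAC RNF138-/-. In Cfd all CAC wild type libraries were above all colitis wild type libraries, and colitis RNF138-/- library 2 also stood above its wild type counterparts.

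The lipid droplet genes divided. Plin1 (ENSMUSG00000030546.14, chr7:79720218-79732903) kept to the course of Adipoq, with 5, 0 and 3 reads in colitis wild type, 0, 9 and 122 in colitis RNF138-/-, 57, 65 and 6 in CAC wild type and 0, 0 and 1 in CAC RNF138-/-. Cidec (ENSMUSG00000030278.11, chr6:113424634-113435760) was read in every library, also in organoids. Its levels were 2.91, 1.76 and 1.63 CPM in colitis wild type and 9.95, 15.8 and 24.9 CPM in colitis RNF138-/-. In CAC they were 18.1, 10.7 and 17.2 CPM in wild type and 1.27, 0.607 and 0.987 CPM in RNF138-/-. The genotypes did not overlap in either tissue model, and the order of the genotypes was opposite.

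Organoids, in which Adipoq, Lep, Cfd and Plin1 had at most 1 read per library, held 4.58, 2.12 and 3.08 CPM of Cidec in wild type and 7.59, 3.69 and 6.39 CPM in RNF138-/-. These levels were above those of all 3 CAC RNF138-/- tissue libraries. Cidec was thus read where the 5 genes before it were nearly missing, and the name adipocyte gene is less apt for it.

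Fabp4 (ENSMUSG00000062515.3, chr3:10204088-10208576) was also read in every library. Its levels were 23.4, 21.9 and 33.9 CPM in colitis wild type, 22.2, 22.2 and 112 CPM in colitis RNF138-/-, 67.4, 48.8 and 34.1 CPM in CAC wild type and 14.3, 14.8 and 15.0 CPM in CAC RNF138-/-. The library with the most Adipoq reads, colitis RNF138-/- library 3, had the most Fabp4, while the remaining libraries of that group lay within the range of wild type. The organoids held 7.34 ± 1.96 CPM (SD, n = 3) in wild type and 7.01 ± 1.61 CPM (SD, n = 3) in RNF138-/-.

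Pck1 (ENSMUSG00000027513.11, chr2:173153048-173159273) ran apart from the other members. Its levels were 227, 195 and 190 CPM in colitis wild type, 80.5, 150 and 126 CPM in colitis RNF138-/-, 107, 84.1 and 134 CPM in CAC wild type and 2.18, 1.34 and 16.6 CPM in CAC RNF138-/-. The colitis wild type libraries, nearly free of Adipoq, were the highest, and organoids had between 0 and 7 reads. Across the 12 tissue libraries the Pearson correlation of log2(CPM + 0.5) with Adipoq was 0.42 for Pck1 and 0.58 for Lep, against 0.99 for Plin1, 0.97 for Retn, 0.96 for Cfd, 0.95 for Fabp4 and 0.77 for Cidec. These values describe 12 libraries that share few high points.

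**Figure D1:**
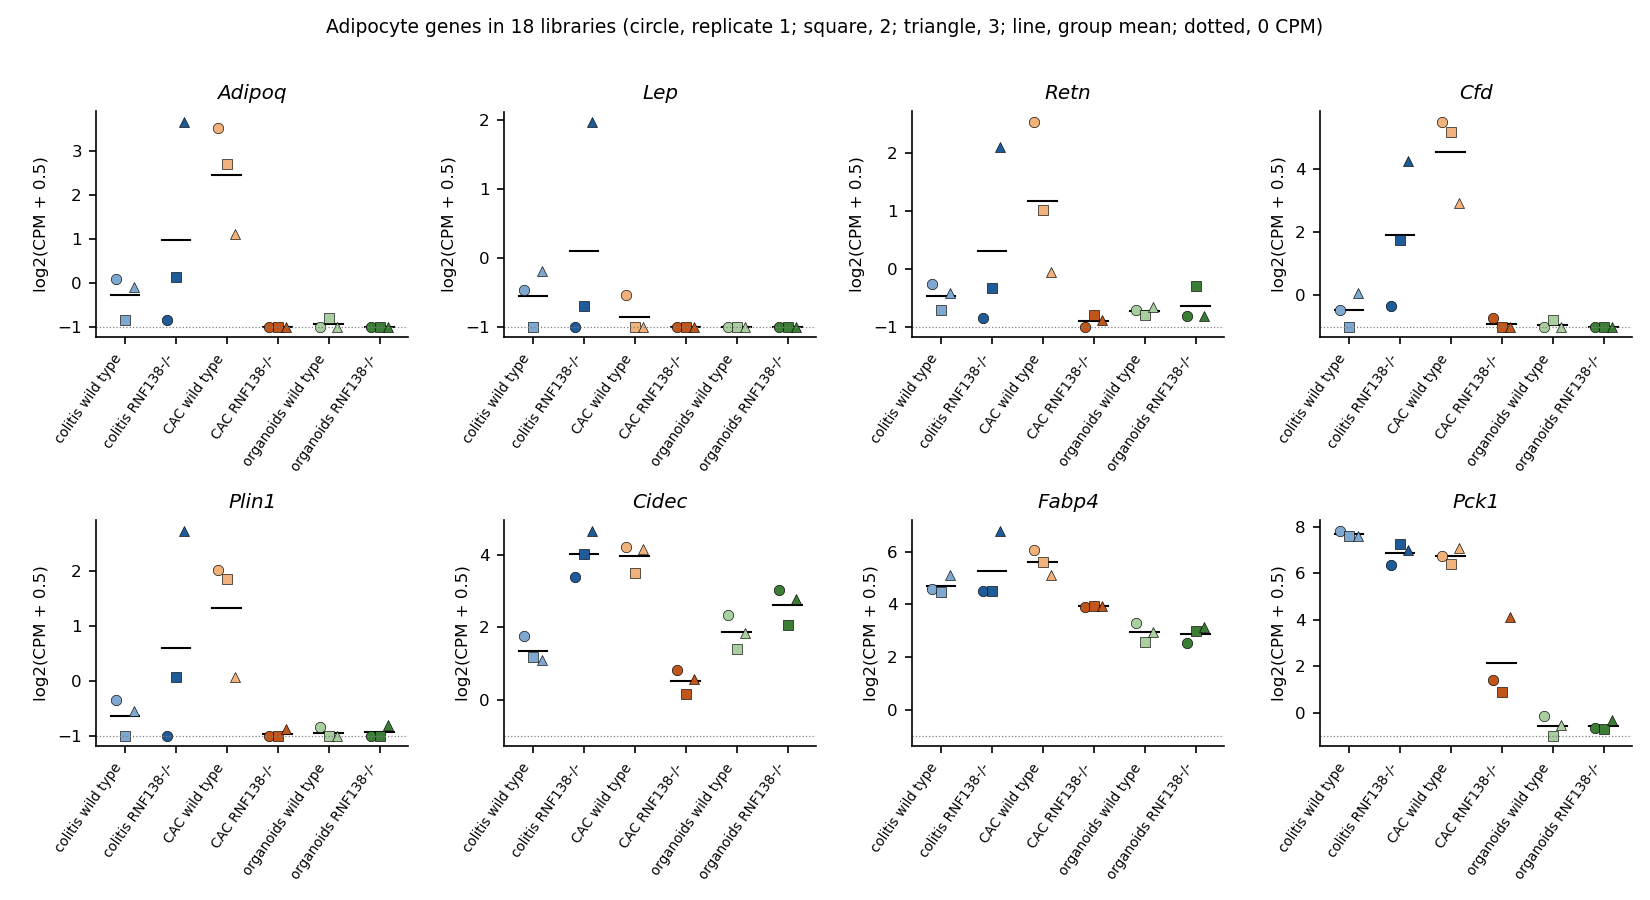
Level of each gene as log2(CPM + 0.5) in the 18 libraries, by group; points are single libraries, the line is the mean of 3, and the dotted line marks 0 CPM. Adipoq, Retn, Cfd and Plin1 are high in colitis RNF138-/- library 3 and CAC wild type libraries 1 and 2, while Cidec and Fabp4 stay above the dotted line in every library.

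Added up, Adipoq, Lep, Retn, Cfd and Plin1, a grouping made after their values were seen, had 29, 3 and 29 reads in colitis wild type and 7, 74 and 876 in colitis RNF138-/-. In CAC the sum was 1030, 962 and 106 reads in wild type and 2, 2 and 2 in RNF138-/-. The organoids had between 1 and 6 reads. Within a group of 3 the colitis RNF138-/- libraries therefore spanned most of the range of the whole series. Per length, Cfd was the highest of the 5 in each library with over 100 of these reads, at 48.1, 38.5 and 7.72 CPM per kilobase of exon in CAC wild type and 20.2 in colitis RNF138-/- library 3, where Adipoq had 7.92, 4.34, 1.21 and 8.80.

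Since these transcripts were high in the same libraries, they were also set against Adipoq within each library, for the 7 libraries with at least 7 Adipoq reads. For each 100 Adipoq reads, colitis RNF138-/- library 3 had 28.2 Lep reads (95% exact counting interval 21.2 to 37.1). CAC wild type library 1 had 1.71 (0.350 to 5.09), and library 2 had 0 Lep reads beside 125 Adipoq reads, with an upper limit of 2.995. The interval of the colitis library met neither of these, so less leptin was read per adiponectin in CAC wild type libraries 1 and 2 than in colitis RNF138-/- library 3. CAC wild type library 3, with 18 Adipoq and 0 Lep reads, had an upper limit of 22.7, which meets the colitis interval.

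The shallower colitis libraries gave 40.0 (9.16 to 139), 85.7 (23.8 to 298) and 20.0 (2.13 to 93.9) Lep reads per 100 of Adipoq in wild type libraries 1 and 3 and RNF138-/- library 2. Cfd went the other way, with 154 (130 to 181) in colitis RNF138-/- library 3 against 406 (343 to 481), 592 (489 to 721) and 428 (254 to 760) in CAC wild type libraries 1 to 3. Colitis RNF138-/- library 2, with 480 (240 to 1064), lay among the CAC values. Plin1 gave between 32.6 and 52.0 and Retn between 25.6 and 48.6 in the 3 libraries richest in Adipoq, and up to 90.0 and 60.0 over the 7 libraries. Intervals cover counting error only, and single libraries do not show a difference between the models.

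**Figure D2:**
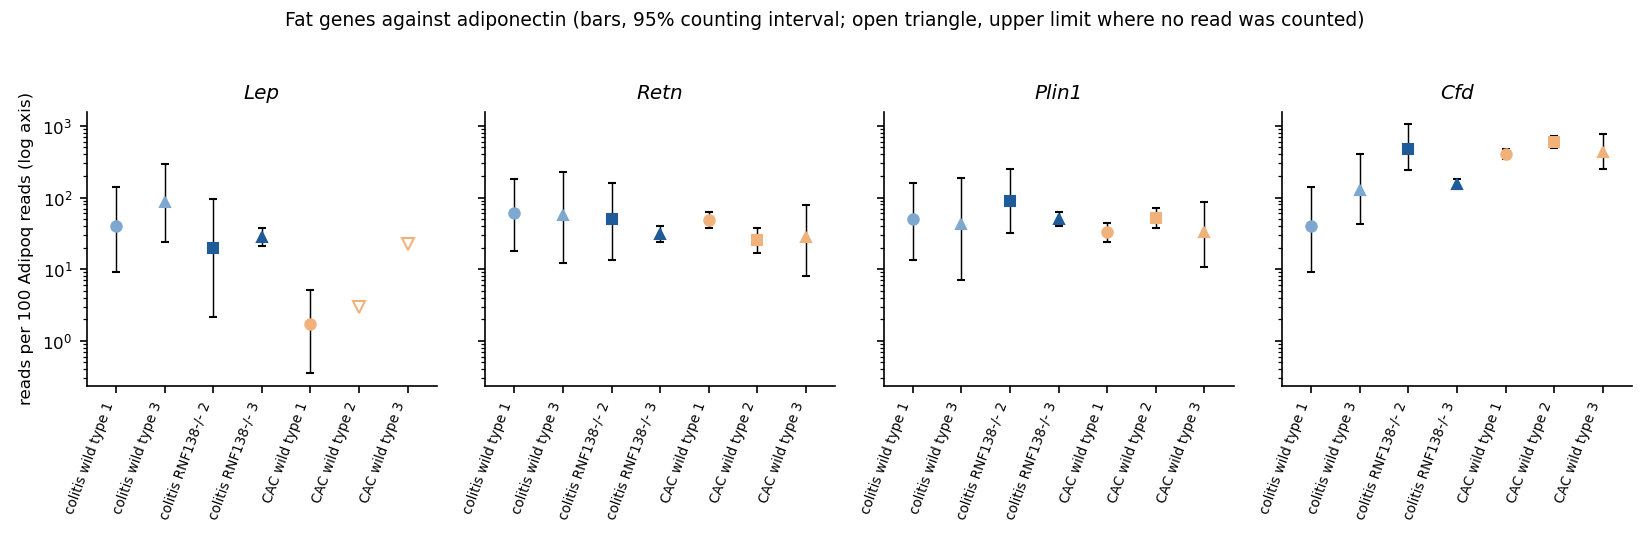
Reads of Lep, Retn, Plin1 and Cfd per 100 Adipoq reads (log axis) in the 7 libraries with at least 7 Adipoq reads, with 95% counting intervals; open triangles give the exact upper limit where no read was counted. Lep is at 28.2 in colitis RNF138-/- library 3 and 1.71 in CAC wild type library 1, while Retn lies between 25.6 and 60.0 and Plin1 between 32.6 and 90.0.

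In colitis, the comparison of RNF138-/- with wild type asks what loss of RNF138 changes in chronic inflammation. The members were chosen with earlier results of these data known, so their p-values in colitis and organoids carry that limit. Cidec stood 8.21-fold higher in RNF138-/-, Pck1 was lower in all 3 libraries, and neither passed the test over all genes. The 5 low genes did not pass the filter on low counts, since too few libraries of either genotype held enough of their reads, so 3 of the 8 members entered the fit. A gene was called when its adjusted p by edgeR was under 0.05 and its fold was at least 2, and 0 of the 3 was called, where 0.018% of the 16623 genes tested were called higher and 0.0722% lower. With no adjustment of p and the same thresholds 1 was, Cidec, as with DESeq2.

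For Cidec the log2 fold change was 3.04 ± 0.42 (SE), with an adjusted p of 0.0525 by edgeR, higher in 3 of 3 libraries. With the replicate number as a block the adjusted p by edgeR was 0.0452 (log2 fold change 2.96), which makes it a call. Without RNF138-/- library 3, the one rich in fat transcripts, it was 2.61 on the log2 scale with an adjusted p of 0.0170 by edgeR, which leaves libraries with few Adipoq reads. Without RNF138-/- library 1 the adjusted p by edgeR was 0.0168, but it was 0.163 without library 2 and 0.191, 0.185 and 0.339 without wild type libraries 1, 2 and 3, so the call depends on which library is left out while the log2 fold change stayed between 2.61 and 3.33. Pck1 differed by -0.75 ± 0.25 (SE) on the log2 scale (adjusted p = 0.345, edgeR), and its groups, like those of Cidec, did not overlap, as was the case for 9.44% of genes in the lower and 8.04% in the higher direction.

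Fabp4 differed by 1.04 ± 0.63 (SE) on the log2 scale (adjusted p = 0.637, edgeR). That value rested on RNF138-/- library 3, without which it was -0.25. The 5 low genes likewise had 876 reads in that library and 7 and 74 in RNF138-/- libraries 1 and 2.

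In CAC, where the same genotypes were compared in tumor-bearing colon, every member except Lep was lower in RNF138-/-, and this was among the patterns that led to the choice of the genes. Adipoq was at least 44.8-fold lower, against a floor of 3 reads over the group. Pooled reads of Cfd differed 1055-fold (95% counting interval 292 to 8719), those of Plin1 177-fold (31.2 to 7039) and those of Retn 56.2-fold (18.8 to 276). These intervals cover counting error only, not the spread between libraries, and nothing is read from them about the genotypes. Cidec differed by -4.05 ± 0.39 (SE), Fabp4 by -1.80 ± 0.23 (SE) and Pck1 by -4.06 ± 0.97 (SE) on the log2 scale. For Lep, with 3 reads in 1 wild type library, no fold can be given.

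Of the 5 members that passed the filter in CAC, Adipoq and Cfd through their wild type reads alone, 4 were past the thresholds, all lower, where 4.83% of 17752 genes were called lower and 0.546% higher. The genotypes did not overlap in any of the 5, as in 21.8% of genes in this direction. The share among the members follows from how they were chosen and nothing is read from it. No gene of the whole table was past the thresholds without RNF138-/- library 1 or library 2 (0 of 18479 and 0 of 17990), against 954 with all 6 libraries. Fabp4 was lower in RNF138-/- by a smaller amount than Cidec or Pck1, and its 3 RNF138-/- libraries, between 14.3 and 15.0 CPM, lay closer together than those of any other group. Pck1 had 370 reads in RNF138-/- library 3 against 41 and 33 in libraries 1 and 2, and without library 3 its log2 fold change was -5.98.

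In organoids, cultured apart from the colon, the same comparison was left with few members. Only Cidec and Fabp4 passed the filter on low counts. By edgeR 0 of the 2 was called, where 7.94% of 15294 genes were called higher and 7.04% lower, and 0 passed at an unadjusted p under 0.05 with the same fold or with DESeq2. Cidec differed by 0.79 ± 0.36 (SE) on the log2 scale (adjusted p = 0.119, edgeR) and Fabp4 by -0.12 ± 0.26 (SE) (adjusted p = 0.755, edgeR). Without wild type library 1, Cidec was called, with 1.13 on the log2 scale and an adjusted p of 0.0383 by edgeR. Macrophage genes (8 genes) summed to between 50.9 and 71.8 CPM in wild type and between 140 and 197 CPM in RNF138-/- organoids, and smooth muscle genes (8 genes) to between 291 and 1406 and between 1660 and 1844 CPM, and their part in the Cidec and Fabp4 reads was not tested. In Cidec and in Fabp4 the genotypes overlapped, where 28% of genes were higher and 25.2% lower without overlap.

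CAC and colitis were then compared within each genotype, in a fit of the 12 tissue libraries that tested 7 members, all except Lep. The models differ in AOM and in the share of mice with tumors, which cannot be told apart here. The paper also reports tumors in some RNF138-/- mice of the colitis model. These comparisons share their CAC libraries with the comparison above, and so with the choice of the genes, and are given for the members with no p. In wild type, all members tested except Pck1 were higher in CAC. In RNF138-/-, the 7 members were lower.

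In wild type, Cfd differed by 6.78 ± 1.44 (SE) and Cidec by 2.88 ± 0.42 (SE) on the log2 scale. Adipoq, Plin1 and Retn differed by 4.12 ± 1.51, 3.91 ± 1.44 and 3.36 ± 1.24 (SE). Without CAC wild type library 1 the value of Retn was 2.13. Cfd, Adipoq, Plin1 and Retn passed the filter through the libraries where they are high, and had at most 10 reads in a colitis wild type library.

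Fabp4 differed by 0.94 ± 0.54 (SE) and Pck1 by -0.89 ± 0.66 (SE) on the log2 scale. The CAC libraries lay above all colitis libraries in 6 of the 7 members, where 17.8% of all genes did, and below them in Pck1, where 16.9% did. For Fabp4 the gap was small, with 34.1 CPM in the lowest CAC and 33.9 CPM in the highest colitis library. Cfd and Cidec were past the thresholds of the fit, 2 of 7 members, where 8.41% of 18843 genes were called higher and 3.04% lower, and nothing is read from that count.

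In RNF138-/-, Adipoq was at least 30.9-fold lower in CAC, and pooled reads were 262-fold lower for Cfd (95% counting interval 72.2 to 2174) and 163-fold lower for Plin1 (28.7 to 6470). Retn was 33.5-fold lower (11.1 to 166) and Lep, which did not pass the filter, at least 8.55-fold. Colitis RNF138-/- library 3 holds most of these reads, and the intervals cover counting error only, not the spread between libraries. With 1 library left out, the log2 difference ran from -5.51 to -1.88 for Retn and from -8.36 to -3.67 for Plin1. It ran from -9.92 to -5.62 for Adipoq and from -10.08 to -5.43 for Cfd.

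Cidec differed by -4.15 ± 0.45 (SE), Pck1 by -4.14 ± 0.75 (SE) and Fabp4 by -1.84 ± 0.55 (SE) on the log2 scale. Without colitis RNF138-/- library 3 the values were -3.78, -4.13 and -0.63. The CAC libraries lay below all colitis libraries in 5 of the 7, where 27.8% of all genes did, and overlapped with them in Plin1 and Retn. All 7 were past the thresholds of the fit, where 19.6% of 18843 genes were called lower and 17.1% higher, and 4 of the 7 were without colitis RNF138-/- library 3, and nothing is read from these counts.

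**Figure D3:**
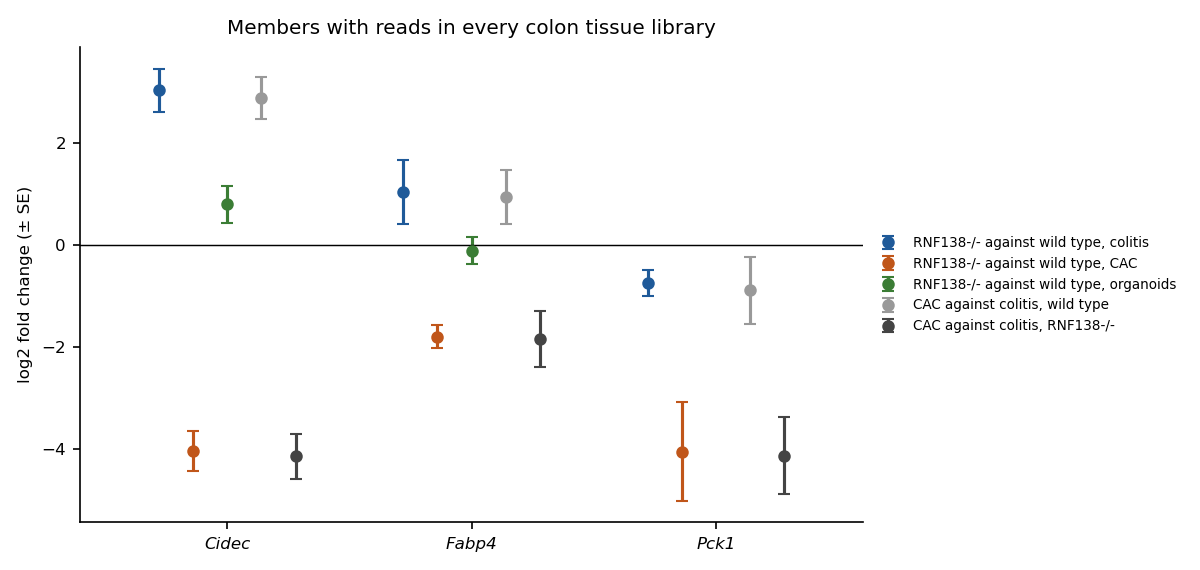
Log2 fold change with its SE for Cidec, Fabp4 and Pck1 in the 5 comparisons, from edgeR; Pck1 was not tested in organoids. Cidec is positive between genotypes in colitis (3.04) and negative in CAC (-4.05), and all 3 genes are negative between CAC and colitis in RNF138-/-.

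Other genes of white adipocytes were counted beside the members. Of a list of 29 such genes in the table, beside the 8 members, 23 passed the filter in organoids, so most are also read in cultures with 1 Adipoq read in all. Among those 23, 2 were called higher and 1 lower in RNF138-/- organoids, where 7.94% and 7.04% of all genes were. Without overlap, 11 of the 23 lay higher and 2 lower, where 28% and 25.2% of all genes did. The 29 genes summed to between 2403 and 2637 CPM in RNF138-/- and between 1049 and 1615 CPM in wild type organoids. With 1 organoid library left out, between 1 (without RNF138-/- library 2) and 5 (without wild type library 1) were called. In colitis 0 of the 26 tested was called by edgeR, and with no adjustment 2 passed in the higher direction. In CAC, 8 of 27 were lower and 0 higher, where 4.83% of all genes were lower, with a median log2 difference of -0.83 against 0.01 over all genes. These calls fell to 0 without RNF138-/- library 1 or 2 and to 3 without library 3. Between CAC and colitis in wild type, 2 of 28 were higher and 1 lower, which is near the 8.41% and 3.04% of all genes. No gene of the list was called higher there without colitis wild type library 1 or 2 or CAC wild type library 1, and 1 remained lower in each of these fits. In RNF138-/-, 3 were higher and 15 lower, where 17.1% and 19.6% of all genes were.

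The 8 most abundant of these 29 are enzymes of lipid metabolism, pyruvate carboxylase and a transcription factor. The fatty acid synthase Fasn had a mean of 262 CPM over the tissue libraries and rose by 1.84 ± 0.36 (SE) on the log2 scale between colitis and CAC in RNF138-/- (adjusted p = 0.00153, edgeR), where the members were lower. The desaturase Scd1 rose there by 1.66 ± 0.54 (SE) (adjusted p = 0.0221, edgeR) and in wild type by 2.11 ± 0.54 (SE) (adjusted p = 0.0240, edgeR). Its call in wild type was lost without any 1 of the 3 colitis wild type libraries (adjusted p by edgeR between 0.0644 and 0.0930) and without CAC wild type library 1 (0.0787), where the log2 value was 0.91. In RNF138-/- it was lost without colitis library 2 or 3 (0.0615 and 0.0769) or CAC library 2 (0.0637). Acetyl-CoA carboxylase Acaca rose in RNF138-/- by 1.12 ± 0.19 (SE) (adjusted p = 0.000783, edgeR), and by 0.91, under a fold of 2, without CAC RNF138-/- library 1. Acly, the citrate lyase that feeds them, differed by 0.88 ± 0.26 (SE) (adjusted p = 0.0149, edgeR), under a fold of 2. Without colitis RNF138-/- library 2 Acly was called, at 1.12 (adjusted p = 0.00722, edgeR).

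The transcription factor Cebpa fell by 2.28 ± 0.36 (SE) in RNF138-/- (adjusted p = 0.000459, edgeR) and by 1.86 ± 0.35 (SE) in wild type (adjusted p = 0.00575, edgeR), also where Adipoq reads were more frequent in CAC. The elongase Elovl6 fell by 1.24 ± 0.36 (SE) in RNF138-/- (adjusted p = 0.0136, edgeR), a call lost without CAC RNF138-/- library 2 (adjusted p = 0.0579, edgeR). The triglyceride lipase Pnpla2 differed by -0.18 ± 0.21 (SE) and the pyruvate carboxylase Pcx by -1.10 ± 0.44 (SE) there, with adjusted p of 0.503 and 0.0553 by edgeR, and the value of Pcx was -0.36 without colitis RNF138-/- library 1 and -1.54, a call (adjusted p = 0.00437, edgeR), without library 3. Ucp1, the uncoupling protein of brown fat, had 1 read in the 12 tissue libraries.

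Relatives of the members within their gene families, a list chosen with earlier results of these data known, were set beside them. Of 14 such genes, 4 of the 13 tested in CAC were lower in RNF138-/-, where 4.83% of all genes were, and 0 without RNF138-/- library 1 or 2 and 1 without library 3. Between CAC and colitis 2 of 13 were higher in wild type (8.41% of all genes), with 2 higher and 6 lower in RNF138-/- (17.1% and 19.6%). In wild type 1 was higher without colitis wild type library 1 or 2. Retnlb, the resistin-like molecule of goblet cells, had 3.71, 4.15 and 5.14 CPM in colitis wild type and 1810, 1755 and 94.3 CPM in colitis RNF138-/-, where Retn was highest in the third library and Retnlb in the other two. The log2 fold change of Retnlb was 8.14 ± 1.11 (SE) in colitis (adjusted p = 0.0525, edgeR), and it was called without RNF138-/- library 3 (8.69, adjusted p = 4.71e-06, edgeR) but with no other library left out. In CAC it differed by -6.86 ± 1.90 (SE) (adjusted p = 0.0702, edgeR). Between colitis and CAC it rose in wild type by 7.76 ± 1.73 (SE) (adjusted p = 0.0122, edgeR), called in 10 of 12 fits with 1 library left out but not without colitis wild type library 1 or 2, and in RNF138-/- it fell, with a log2 difference of -7.18 ± 1.67 (SE) (adjusted p = 0.00421, edgeR), called in 12 of 12. Retnla, made by macrophages and fat, had 0 reads in the 3 CAC RNF138-/- libraries and a mean of 3.76 CPM in CAC wild type, while Retnlg, of neutrophils, was at 23.0 against 6.70 CPM (adjusted p = 0.0691, edgeR).

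Fabp2, the fatty acid binding protein of enterocytes, fell with Fabp4 in CAC RNF138-/-, from a mean of 404 CPM in wild type to 0.837 CPM (adjusted p = 0.0426, edgeR), although CAC wild type itself ran from 23.1 to 1101 CPM. Fabp5 was at 23.4 against 17.8 CPM (adjusted p = 0.360, edgeR), and Fabp1 and Fabp6 were at most 2.13 and 13.3 CPM in any tissue library. Among the perilipins, Plin4 fell by 4.28 ± 0.41 (SE) on the log2 scale in CAC (adjusted p = 0.0170, edgeR), while Plin2 and Plin3, found in most cells, differed by -0.27 ± 0.29 and -0.04 ± 0.15 (SE), with adjusted p of 0.529 and 0.848 by edgeR. Plin5 was at 2.08 against 0.697 CPM (adjusted p = 0.115, edgeR). Without CAC RNF138-/- library 1 or 2 the adjusted p by edgeR was 0.0810 or 0.111 for Plin4 and 0.125 or 0.164 for Fabp2, so neither call remained, and that of Fabp2 was also lost without library 3 (0.111) or wild type library 2 (0.0502). Between colitis and CAC in RNF138-/-, Plin4 differed by -4.56 ± 0.39 (SE) and Fabp2 by -9.68 ± 1.42 (SE), both called in 12 of 12 fits with 1 library left out (adjusted p = 1.98e-05 and 0.000305, edgeR), and in wild type by 0.94 ± 0.33 and -0.09 ± 0.95 (SE) (adjusted p = 0.0758 and 0.962, edgeR). Without CAC wild type library 3, Fabp2 was called lower in wild type, at -2.98 on the log2 scale (adjusted p = 0.00463, edgeR).

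Of the relatives of Cidec, Cideb fell by 1.99 ± 0.44 (SE) in CAC (adjusted p = 0.0498, edgeR) and Cidea had at most 0.914 CPM in tissue. The call of Cideb was lost in 5 of the 6 fits that left out 1 CAC library, with an adjusted p by edgeR of up to 0.168. Pck2, the mitochondrial counterpart of Pck1, differed by -0.41 ± 0.19 (SE) in CAC (adjusted p = 0.181, edgeR), and in organoids, where Pck1 was nearly unread, it rose by 1.14 ± 0.15 (SE) (adjusted p = 0.00234, edgeR). Between colitis and CAC Pck2 fell in RNF138-/- by 1.06 ± 0.24 (SE) (adjusted p = 0.00345, edgeR), called in 11 of 12 fits with 1 library left out and not without colitis RNF138-/- library 1 (-0.86). The receivers of adipokine signals were read in all tissue libraries. Between CAC and colitis in wild type, 1 of 8 genes for receptors and complement partners was higher, where 8.41% of all genes were, and 0 lower. In RNF138-/- 1 was higher and 1 lower, where 17.1% and 19.6% of all genes were. The higher gene in both was Cdh13, the cell-surface binder of adiponectin, named after its values were seen. In wild type Cdh13 rose by 1.61 ± 0.36 (SE) (adjusted p = 0.0132, edgeR). That call was lost without colitis wild type library 1 or 2 or CAC wild type library 1, with an adjusted p of up to 0.0619 by edgeR. In RNF138-/- Cdh13 rose between colitis and CAC by 3.12 ± 0.38 (SE) (adjusted p = 0.000118, edgeR), called in 12 of 12 fits with 1 library left out. Between genotypes it fell in organoids by 1.06 ± 0.17 (SE) (adjusted p = 0.00394, edgeR; called in 4 of 6 such fits) and differed by 1.49 ± 0.44 (SE) in CAC (adjusted p = 0.0786, edgeR). In CAC it was called without wild type library 3 alone (1.13, adjusted p = 0.0313, edgeR), in 1 of 6 such fits. The receptors Adipor1 and Lepr differed there by -0.03 ± 0.16 and -0.19 ± 0.42 (SE), with adjusted p of 0.921 and 0.784 by edgeR.

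The genes whose levels were most like the mean of Adipoq, Plin1, Cfd, Lep, Retn and Cidec were sought among 16001 genes over the 12 tissue libraries, by the Pearson correlation of log2(CPM + 0.5). First came Car3, a carbonic anhydrase abundant in fat and muscle, at 0.98, followed by Ighv1-62-2, Gimap8, Igkj2, Rnf212, Gimap6, Ccr6, Rasgrp3, Slamf6 and Rubcnl, the last at 0.86. Car3 had between 325 and 567 reads per 100 Adipoq reads in the 3 libraries richest in Adipoq and 489 in CAC wild type library 3. Ighv1-62-2 and Igkj2 are immunoglobulin segments, Gimap8 and Gimap6 GTPases, and Ccr6 and Slamf6 receptors of immune cells. Some of these genes were low, with at most 3.94 CPM of Igkj2 and 4.25 CPM of Rubcnl in any tissue library.

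Markers of other cell types were added up beside the members, and their part in the results was not tested. Genes of lymphoid follicles (8 genes) summed to 107, 41.0 and 57.6 CPM in CAC wild type and between 12.4 and 14.9 CPM in CAC RNF138-/-, with 102 CPM in colitis RNF138-/- library 3 and 88.8 CPM in library 1, which had 7 reads of the 5 low members. Pancreatic acinar genes (8 genes) summed to 1579 and 96.6 CPM in CAC wild type libraries 2 and 3 and 7.47 CPM in colitis RNF138-/- library 3, and to at most 0.855 CPM in the other 9 tissue libraries. CAC wild type library 1, with the most fat reads, was among those 9.

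Smooth muscle genes (8 genes), of the muscle layer of the gut wall, summed to between 2687 and 8565 CPM in CAC wild type and between 138 and 270 CPM in CAC RNF138-/-, the libraries without Adipoq reads. In colitis the sum was highest in RNF138-/- library 1, at 15343 CPM, and lowest in library 3, at 5160 CPM. The list of 8 mesothelial genes summed to between 15.2 and 30.3 CPM in CAC RNF138-/- and between 19.7 and 34.3 CPM in CAC wild type, and of the 5 genes tested there 2 had positive and 3 negative differences, and 1 was called lower. Its members are not alike, and Upk3b, a mesothelial marker picked after its values were seen, had 0, 0 and 1 reads in CAC RNF138-/-, 18, 30 and 73 in CAC wild type and between 171 and 1532 in colitis. Msln, also on the list, was read in the organoids too.

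Blood endothelium (9 genes) summed to between 126 and 212 CPM in CAC RNF138-/- and between 136 and 212 CPM in CAC wild type, and to between 3.61 and 9.22 CPM in organoids. Macrophage genes (8 genes) summed to between 682 and 957 CPM in CAC RNF138-/- and between 344 and 823 CPM in CAC wild type. Epithelial genes (8 genes) summed to between 6902 and 8398 CPM in CAC RNF138-/- and between 8645 and 16290 CPM in CAC wild type.

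**Figure D4:**
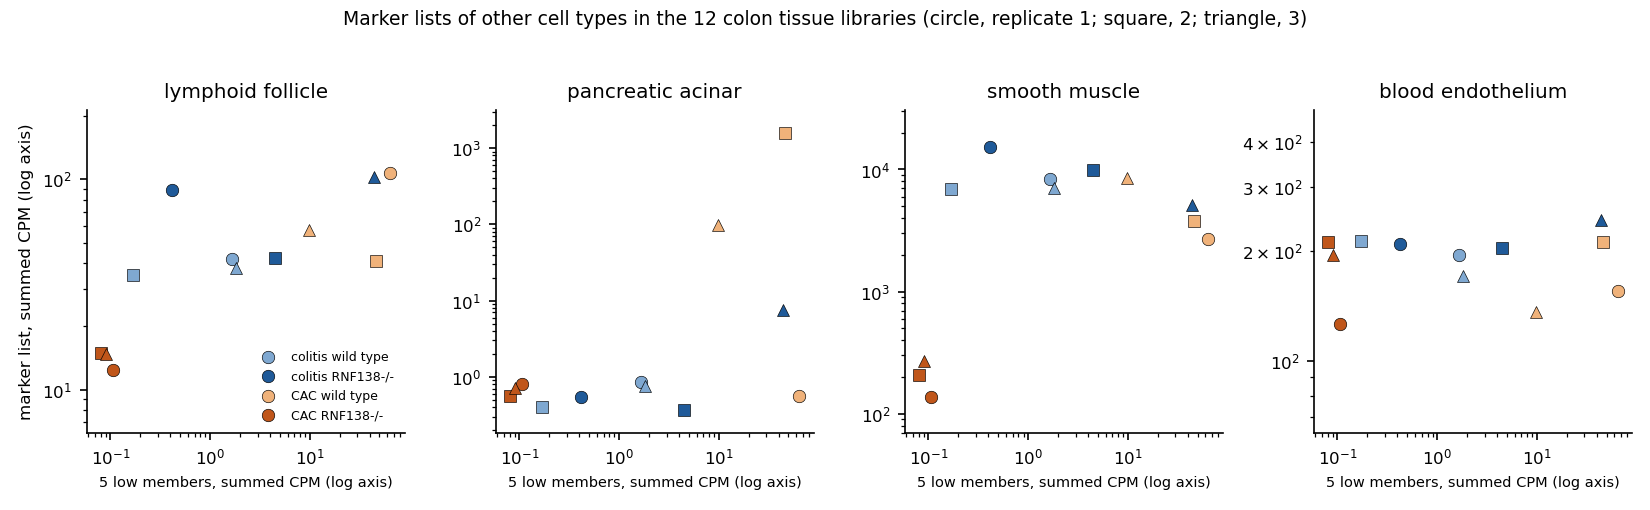
Summed CPM of marker lists (y, log axis) against the summed CPM of Adipoq, Lep, Retn, Cfd and Plin1 (x, log axis) in the 12 colon tissue libraries. The 3 CAC RNF138-/- libraries lie furthest left, with 2 reads each next to 3 in colitis wild type library 2, and are the lowest in follicle and smooth muscle genes, while the sums of blood endothelium overlap between all groups.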

How the data were processed

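The authors deposited counts of reads per gene, whole numbers without normalization, for 36757 genes in 18 libraries. The submitters' processing notes name mm10, STAR 2.6.1d, HTSeq 0.11.2 and DESeq2, the study's methods name Cufflinks with a Gencode annotation, and the use of strand is not given in the sources used here. A second deposited table holds the authors' own fold changes and p-values and was not used.

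Total counts were between 11514716 and 24390082 per library. Replicate libraries differed by more than sampling noise (chi-square per degree of freedom between 7.44 and 144), so all were kept. Counts were fitted with edgeR 4.0.16 in R 4.3.3 (TMM normalization, filterByExpr, glmQLFit and glmQLFTest), genotypes within each model and CAC against colitis in the 12 tissue libraries, with Benjamini-Hochberg adjustment over all genes tested, and tested on simulated data. Calls needed a fold of 2 or more and an adjusted p below 0.05, thresholds given in the study's methods. DESeq2 1.42.0, other scalings, no filter, a replicate block, 1 fit of all libraries and leaving out each library served as alternatives. CPM were TMM-scaled over the 18 libraries, and a pseudocount of 0.5 CPM was used for correlations and plots. A fold against a group at 0 used a floor of 3 reads over the group. Coordinates and exon lengths come from GENCODE M21 (mm10), in which no member overlaps another gene.

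Same-numbered colitis libraries deviated together from their group means (correlations 0.25, 0.11 and 0.54 over 15905 genes). Libraries of different number were not compared and the labels name no pairs, so whether the numbers pair the colitis libraries is not known. In CAC the correlations were 0.03, 0.22 and 0.08 and in organoids -0.22, -0.08 and 0.07.

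For the members, p-values of comparisons with CAC libraries are not printed, because those libraries entered their choice. The members and lists were chosen with earlier results of these data known. Named are the 8 members, the 8 most abundant other white adipocyte genes, the family relatives, Ucp1 and the 10 genes most like the members. Cdh13, Adipor1, Lepr, Upk3b, Msln, Xist and Ddx3y were named after their values were seen.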

Additional observations from a re-analysis of the deposited data

Results flagged for a closer look

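Cidec differed between the genotypes in opposite directions in the tissue models, with every RNF138-/- library above every wild type library in colitis (3.04 on the log2 scale) and below every wild type library in CAC (-4.05). The difference between these effects was not tested, and the CAC libraries entered the choice of the members. Without overlap, 8.04% of all genes tested were higher in colitis and 21.8% lower in CAC. The share of genes with both was not counted.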

How the results depend on the processing

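The counts of members called kept to within 1.5 times under RLE normalization and without scaling beyond total counts. In colitis (0 called), 2 were called without a filter on low counts, 1 with DESeq2, 1 with the replicate block, 1 in a fit of all 18 libraries, and between 0 and 1 with 1 library left out. In CAC (4 called), 7 were called without the filter and 7 in the fit of all 18 libraries, and between 0 and 6 with 1 library left out, with 0 without RNF138-/- library 1 or library 2 and 2 without library 3. In organoids (0 called), leaving out 1 library gave between 0 and 1, with 1 without wild type library 1. Between CAC and colitis in wild type (2 called), 5 were called without the filter and 4 in the fit of all 18 libraries, and between 1 and 5 with 1 library left out, with 1 without colitis wild type library 1, 4 without colitis RNF138-/- library 1 and 5 without colitis RNF138-/- library 3. In RNF138-/- (7 called), leaving out 1 library gave between 4 and 7, with 4 without colitis RNF138-/- library 3. With 1 library left out, the log2 difference of Fabp4 ran from -0.25 (without RNF138-/- library 3) to 1.40 in colitis and from -0.27 to 0.11 in organoids, where it was above 0 without wild type library 1 (0.11) or RNF138-/- library 1 (0.07). The cause of these changes was not tested, except that leaving out a library leaves fewer samples.

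With the replicate number as a block, 5 members were called in CAC, 0 in organoids, and 2 and 7 between CAC and colitis in wild type and RNF138-/-. Same-numbered libraries of the tissue models correlated between -0.09 and 0.07, so there the block shares only a number. Leaving out each library for the named genes that are no members and their lists was an alternative chosen after seeing the data, and its losses stand beside those genes. The limits are 3 libraries per group, genes with fewer than 10 reads in most libraries, and 1 library, colitis RNF138-/- library 3, that holds most fat reads of its group.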

Other observations

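Other lists written for the tissue were summed in the same way. Skeletal muscle genes (8 genes) were highest in colitis RNF138-/- library 1, at 62.7 CPM, and lay between 5.22 and 6.23 CPM in CAC RNF138-/-. Lymphatic endothelial genes (7 genes) summed to between 458 and 597 CPM in CAC RNF138-/- and between 72.7 and 331 CPM in CAC wild type, although 5 of the 7 genes had negative differences (median log2 difference -0.44), 1 was higher without overlap and 0 were called by edgeR (1 at an unadjusted p under 0.05). Genes of adipose progenitors (8 genes) were between 551 and 963 CPM in CAC RNF138-/- and between 747 and 931 CPM in CAC wild type, and the brown adipocyte genes (8 genes) between 40.6 and 56.6 CPM and between 41.6 and 70.7 CPM. The remaining genes of gluconeogenesis (5 genes) were between 78.7 and 88.7 CPM in CAC RNF138-/- and between 121 and 159 CPM in CAC wild type.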
